A study of Mus musculus with 12 samples.

Results

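Growth hormone (GH) from the pituitary binds its receptor, Ghr, on hepatocytes and, through JAK2 and STAT5, switches on Igf1, which encodes the insulin-like growth factor that mediates much of postnatal growth. In blood most IGF1 travels in a complex with Igfbp3 or Igfbp5 and the acid-labile subunit, Igfals, while Igfbp1 and Igfbp2 are small binding proteins that are high in liver when food and insulin are scarce, and Igfbp4 and Igfbp5 act locally in tissues such as muscle. Socs2 and Cish, both induced through STAT5, feed back on the receptor and damp its signal. These 10 genes were chosen by name as members of the GH and IGF axis, not by a threshold on their values. The choice was made with earlier results of these data known. The genes are represented by 27 of the 45101 probe sets on the Affymetrix mouse array used. Igfbp2 and Igfbp5 are neighbours on chromosome 1, and Igfbp1 and Igfbp3 on chromosome 11.

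Livers and quadriceps muscles of C57BL/6 mice were compared at 4 weeks of age. NP+tau offspring came from dams that were fed a normal protein diet (20% casein) and drank water with 1% taurine during pregnancy, and NP offspring came from dams on the same diet with plain water. Both groups are therefore normal protein groups that differ in the taurine the dam drank, and supplementation ended at birth. The 12 arrays comprised 3 NP+tau and 3 NP samples in each tissue, each pup from a different dam. Per the study's methods both tissues were taken from the same animals, so that the 12 arrays come from 6 animals. Values are log2 expression values (RMA), so that a difference of 1 is a 2-fold difference, and the question was whether the axis differed in offspring of supplemented dams.

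Whole tissue RNA was measured, so fewer cells of a type and less RNA per cell cannot be told apart. Hepatocyte markers were bright in every liver (mean level of 9 genes 13.88 to 14.01 in NP+tau and 13.93 to 14.09 in NP), and muscle fibre markers were bright in every muscle (mean level of 10 genes 14.26 to 14.35 in NP+tau and 13.93 to 14.33 in NP). Xist, which is transcribed in females, was at 11.08 in NP+tau liver replicate 1, at 5.96 and 5.07 in NP+tau livers 2 and 3, and at 11.75, 11.63 and 11.78 in the 3 NP livers. The Y-linked Eif2s3y had the opposite pattern, 3.78, 8.55 and 8.57 in NP+tau livers against 3.61, 3.64 and 3.58 in NP livers, and in muscle Xist had 10.87, 5.56 and 5.12 in NP+tau and 10.89, 10.85 and 11.13 in NP. Diet and the level of these genes therefore cannot be fully told apart, since NP+tau held 1 animal and NP held 3 animals with the high Xist level, whereas the study's methods describe both sexes in every group. Liver NP+tau replicate 1 also stood apart over all probe sets, with a median distance from the median array of 0.450, against 0.0769 to 0.169 for the other livers.

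Sequences before Igfbp1 and Igfals and at the start of Cish are shown because they hold the binding letters of factors on this axis: TTCNNNGAA, the STAT5 site, and CAAAACA, a core of the insulin response element, are given in capitals. Windows from 250 bases before to 50 bases after the start were available for 9 of the 10 members (13 windows of 300 bases, RefSeq, GRCm38.p6). The sequences shown are from the plus strand of the chromosome, while the windows of Ghr, Igfbp3 and Igfbp5 lie on the minus strand. Socs2 had no window.
Cish, chr9:107296649-107296678: ccgcccagttTTCCTGGAAagTTCTTGGAA
Igfbp1, chr11:7197639-7197725: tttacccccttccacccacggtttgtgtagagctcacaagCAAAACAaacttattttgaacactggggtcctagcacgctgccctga
Igfals, chr17:24877594-24877656: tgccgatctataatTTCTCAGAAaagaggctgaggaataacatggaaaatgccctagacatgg
Cish held 2 STAT5 matches side by side just after its start, and 2 of the 3 Igfals windows held 1 each. The only CAAAACA match among the members, searched on both strands, lay at position -108 from the start of Igfbp1. Over all 32851 windows the STAT5 letters occurred in 8.3% and CAAAACA or its reverse complement in 6.28%, and a match is no evidence that a factor binds there.

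In liver the axis showed no common direction, with 16 of the 25 member probe sets above 0 and 9 below. By brightest probe set, 5 members were above 0 and 5 below. Of all 14276 genes in liver 6644 were above 0 and 7632 below. The 8 probe sets of Ghr, Igf1 and Igfals all averaged higher in NP+tau than in NP, by 0.64 to 1.36 on the log2 scale, and the fasting-type binding proteins Igfbp1 and Igfbp2 averaged lower, by 1.53 and 0.85. The first of these rested largely on 1 NP liver. Igfbp3, Igfbp4, Igfbp5, Socs2 and Cish had differences between -0.50 and 0.19 on their brightest probe sets. None of these passed the test across all probe sets: 0 of the 25 member probe sets kept in liver, and 0% of all 29274 kept, had an adjusted p under 0.05 (limma, Benjamini-Hochberg), and the smallest adjusted p of a member was 0.718. At an unadjusted p under 0.05, no member was higher, where 0.7% of all probe sets were, and 2 members were lower (Igfbp1 and Igfbp2), where 3.99% of all were.

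Ghr, the GH receptor, had values of 11.36, 10.67 and 11.19 in NP+tau livers and 9.06, 11.08 and 11.15 in NP livers (probe set 1417962_s_at). One NP liver, replicate 1, lay far under the other 5, which were close together and mixed between the groups. The means were 11.07 ± 0.36 in NP+tau and 10.43 ± 1.19 in NP (SD, n = 3 each), a difference of 0.64 (SE 0.565, limma adjusted p = 0.719). Both other Ghr probe sets had the same shape, with differences of 0.81 and 0.85. Without NP replicate 1 the difference of 0.64 became -0.04.

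Igf1, the growth factor itself, is read by 4 probe sets. Probe set 1437401_at, the brightest, had 11.89, 11.51 and 12.29 in NP+tau livers against 9.37, 11.57 and 11.94 in NP livers. Again NP replicate 1 was the low sample, and the remaining NP livers lay inside the NP+tau range. The difference was 0.94 (SE 0.649, adjusted p = 0.718) and the 4 probe sets spanned 0.94 to 1.25. Probe set 1452014_a_at, which reads alternate transcripts of the gene, gave the upper end, with 12.21, 11.25 and 11.81 in NP+tau livers and 9.24, 11.05 and 11.23 in NP livers. Its groups narrowly did not overlap (11.25 against 11.23), and its unadjusted p was 0.056. Leaving out NP replicate 1 took the brightest probe set to a difference of 0.14. On 1452014_a_at the other NP livers (11.05 and 11.23) still lay below every NP+tau liver.

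Igfals, the acid-labile subunit that holds the circulating complex together, had 8.82, 9.08 and 9.21 in NP+tau livers and 6.10, 8.12 and 8.80 in NP livers. All NP+tau livers lay above all NP livers, narrowly so for NP replicate 3. The difference was 1.36 (SE 0.638), or 2.58-fold, with an unadjusted p of 0.070. It was 0.58 without NP replicate 1. Non-overlapping groups with NP+tau higher occurred in 2 member probe sets, those of Igfals and Igf1 just given, and in 5.73% of all probe sets.

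Igfbp1, whose protein binds IGF1 and whose gene insulin represses, had 10.65, 12.01 and 13.14 in NP+tau livers and 13.60, 13.77 and 13.01 in NP livers. The NP livers were uniformly high, the NP+tau livers were spread over more than 2 log2 units, and NP+tau replicate 3 overlapped the NP range. The difference was -1.53 (SE 0.591, 95% interval -2.93 to -0.13), with NP+tau 2.88-fold lower, an unadjusted p of 0.036 and an exact permutation p of 0.2. Without NP+tau replicate 1, the liver array that stood apart, it was -0.89, whereas without NP replicate 1 it was -1.46. Its neighbour Igfbp3 differed by -0.08.

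Igfbp2, a second small binding protein made in liver, had 11.90, 12.90 and 12.37 in NP+tau livers against 13.17, 13.44 and 13.12 in NP livers. Every NP+tau liver lay below every NP liver, which occurred in this 1 member probe set and in 9.11% of all probe sets. The difference was -0.85 (SE 0.276, 95% interval -1.51 to -0.20, NP+tau 1.80-fold lower, unadjusted p = 0.018), and the exact permutation p was 0.1, the smallest that 3 samples against 3 can give. It stayed between -1.11 and -0.61 when each liver was left out in turn. With the Xist level as a covariate, Igfbp1 (-3.11, adjusted p = 0.00818) and Igfbp2 (-1.37, adjusted p = 0.024) were both called, as were 9449 of all liver probe sets, and that comparison rests on NP+tau replicate 1.

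Igfbp3, the main carrier of circulating IGF1, had 8.28, 7.24 and 8.40 in NP+tau livers and 7.08, 7.92 and 9.17 in NP livers, with a difference of -0.08. Igfbp4 had 12.90, 13.18 and 13.22 in NP+tau livers and 12.50 to 13.22 in NP livers, and its 6 probe sets differed by 0.04 to 0.19. Groups overlapped throughout for both genes. Igfbp5, which is dim in liver, had 5.30, 6.50 and 5.75 in NP+tau livers and 5.89, 6.83 and 6.33 in NP livers.

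The feedback inhibitors did not separate the groups in liver. Socs2 had 9.07, 7.56 and 9.09 in NP+tau livers and 8.39, 9.51 and 8.68 in NP livers, a difference of -0.29 (SE 0.485). Cish had 8.73, 6.94 and 7.49 in NP+tau livers and 7.29, 7.96 and 7.59 in NP livers, a difference of 0.10 (SE 0.453). For Cish the NP+tau livers held both the highest and the lowest sample. NP replicate 1, the liver low in Ghr and Igf1, was within the range of the other livers for both genes on these probe sets.

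**Figure D1:**
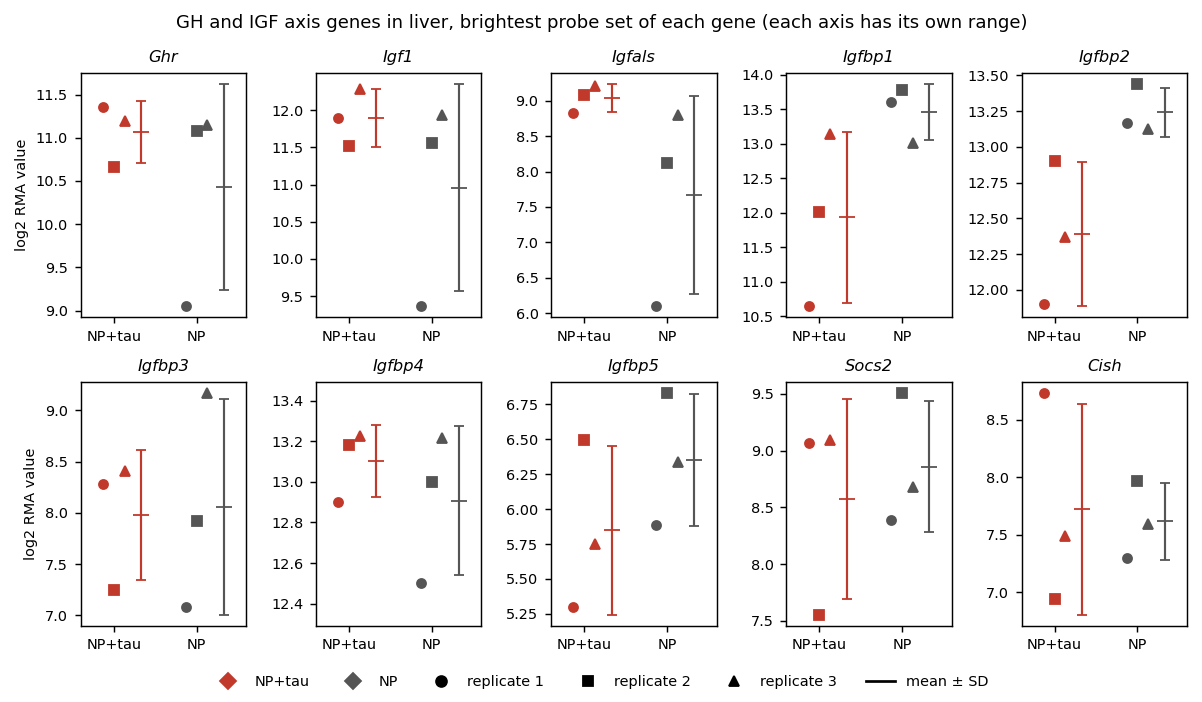
Log2 RMA value (y axis) of the 10 genes in liver, by the brightest probe set of each, with NP+tau left of NP, 1 marker shape per replicate and the mean ± SD of 3 samples beside them. NP replicate 1 is the low point for Ghr (9.06), Igf1 (9.37) and Igfals (6.10), and the Igfbp2 groups do not overlap.

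One liver carried much of the pattern of Ghr, Igf1 and Igfals. NP replicate 1 was the lowest liver in 16 of the 25 member probe sets, where it was lowest in 19.0% of all probe sets. These 16 were the probe sets of Ghr, Igf1, Igfals, Igfbp3 and Igfbp4, and probe sets of 1 gene in 1 sample are not independent. This liver lay more than 1 log2 unit below every other liver in 8 member probe sets, all 3 of Ghr, all 4 of Igf1 and that of Igfals, and in 0.963% of all probe sets. Against the mean of the other 5 livers it was lower by 2.03 to 2.55 for Ghr, by 2.16 to 2.63 for Igf1 and by more for Igfals, 4.09-fold lower for the brightest Ghr probe set and 6.51-fold lower for Igfals. Hepatocyte markers had a mean level of 13.93 in NP replicate 1, against 14.09 and 14.07 in the other NP livers and 13.88 to 14.01 in NP+tau. Their part in these levels was not tested.

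Markers of white blood cells moved with this liver. The neutrophil markers (10 genes measured of 12) had a mean level of 5.56, 5.13 and 5.04 in NP+tau livers and of 8.96, 6.18 and 6.46 in NP livers, the first NP value being that of NP replicate 1. S100a8, a calcium-binding protein of neutrophils, had 6.52, 5.49 and 5.87 in NP+tau livers against 12.75, 8.74 and 8.81 in NP livers. Of the 10 neutrophil markers 9 were lower in NP+tau and 4 had an unadjusted p under 0.05. Over all 14276 genes in liver 7632 were below 0 and 616 were lower at that limit. Without NP replicate 1, 8 of the 10 neutrophil markers were lower, with a median difference of -0.90, against -1.98 with it. All 12 Kupffer cell and macrophage markers were lower in NP+tau as well, 10 of them at an unadjusted p under 0.05. Their mean levels were 8.32, 7.36 and 8.33 in NP+tau and 9.66, 8.81 and 9.12 in NP. All 12 stayed lower without NP replicate 1, with a median difference of -0.92, against -1.15 with it. Their part in the levels of the axis genes was not tested.

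**Figure D2:**
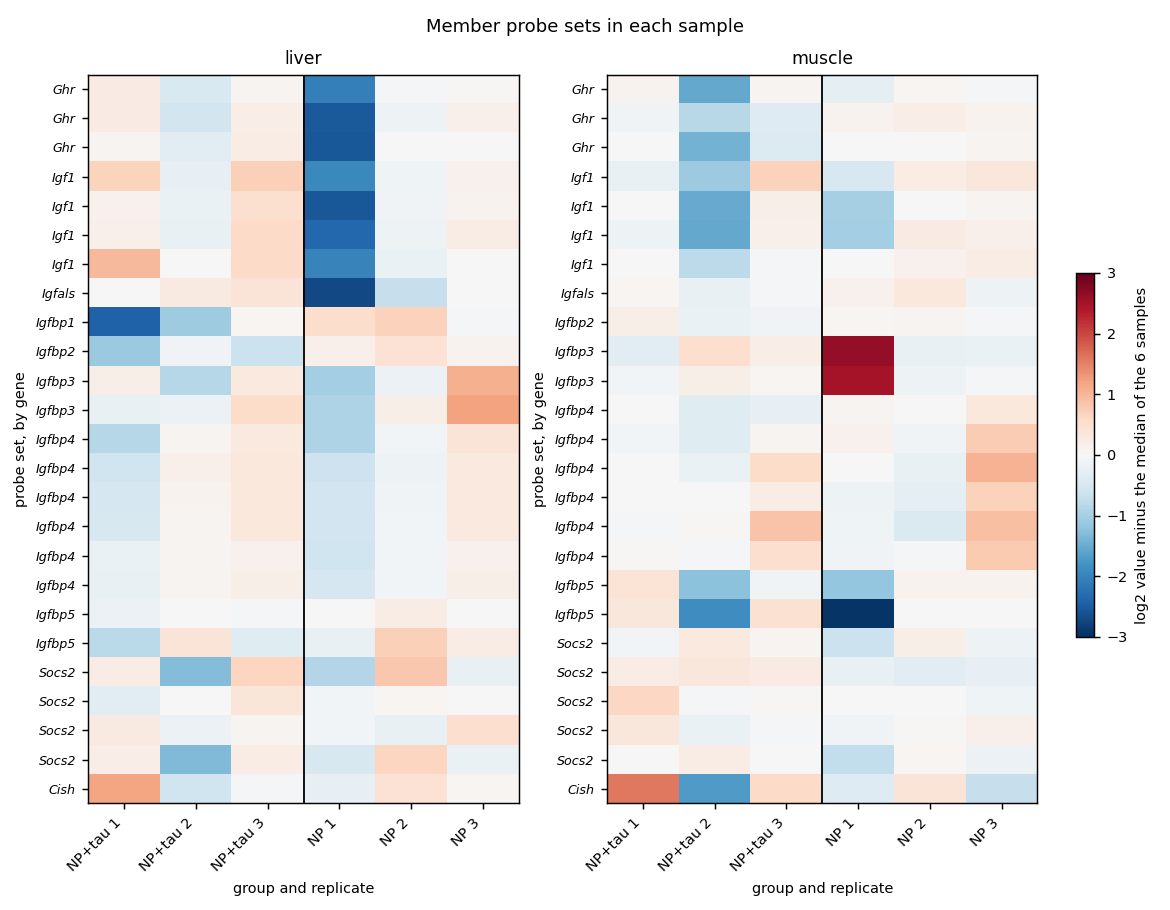
Each row is a member probe set kept in that tissue and each column a sample, NP+tau left of the line and NP right of it, coloured by the log2 value minus the median of the 6 samples. The column of liver NP replicate 1 is low in the 8 rows of Ghr, Igf1 and Igfals, and muscle NP replicate 1 stands out in Igfbp3 (high) and Igfbp5 (low).

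In muscle, as in liver, the axis showed no common direction, with 9 of 25 member probe sets above 0 and 16 below. One of the 9, Socs2 probe set 1438470_at, was kept only through its NP+tau values and is given as values alone. None was called (0% of all 29274 probe sets were). Apart from it, no member was higher at an unadjusted p under 0.05, where 3.72% of all probe sets were. Ghr was lower at that limit by 1 of its 3 probe sets, where 2.4% of all were lower. Igfbp1 was dim in every muscle, with 4.38, 3.46 and 3.49 in NP+tau and 3.95, 3.61 and 3.70 in NP, and was not tested there.

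Ghr had 11.22, 9.59 and 11.20 in NP+tau muscles and 10.85, 11.18 and 11.05 in NP muscles by its brightest probe set (1417962_s_at), with NP+tau replicate 2 alone low. The difference was -0.36 (SE 0.434). By probe set 1451501_a_at it had 8.59, 7.85 and 8.31 in NP+tau and 8.81, 8.88 and 8.80 in NP, with all NP+tau muscles below all NP muscles and a difference of -0.58 (SE 0.204, unadjusted p = 0.025, limma adjusted p = 0.707, exact permutation p = 0.1). Probe set 1451871_a_at had 7.46, 6.05 and 7.07 in NP+tau and 7.47, 7.48 and 7.55 in NP, and its groups narrowly did not overlap. These 3 probe sets therefore differed in how many NP+tau muscles they showed to be low.

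Igf1, which muscle makes for its own growth as well as receiving it from liver, had 9.59, 8.22 and 9.90 in NP+tau muscles and 8.73, 9.995 and 9.89 in NP muscles. NP+tau replicate 2 and NP replicate 1 were the low samples, 1 in each group. The 4 probe sets differed by -0.39 to -0.13, and the brightest by -0.30 (SE 0.512). Igfals, a liver product, was dim in muscle, with 5.96, 5.68 and 5.86 in NP+tau and 6.04, 6.23 and 5.75 in NP.

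Among the binding proteins, Igfbp5 is the one known best for its part in muscle differentiation. It had 12.62, 10.40 and 12.74 in NP+tau muscles and 9.34, 12.28 and 12.28 in NP muscles (1452114_s_at), so that each group had 1 low sample, again NP+tau replicate 2 and NP replicate 1. The difference of 0.62 (SE 0.943) became -0.36 without NP replicate 1 and 1.38 without NP+tau replicate 2. Its other probe set differed by 0.00.

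Igfbp3 had 8.17, 8.99 and 8.67 in NP+tau muscles and 11.12, 8.26 and 8.29 in NP muscles. Its second probe set agreed in shape, with 8.04, 8.29 and 8.18 in NP+tau and 10.63, 7.96 and 8.06 in NP. NP replicate 1 was above every other muscle by 2.13 and 2.34 on these probe sets, and that array was above all others by more than 1 in 0.495% of all probe sets. The difference of -0.61 (SE 0.749) became 0.33 without it. The same muscle was low in Igfbp5, by 2.72 against the mean of the other 5. Its muscle fibre markers had a mean level of 13.93, against 14.26, 14.33 and 14.35 in NP+tau muscles and 14.32 and 14.33 in the other NP muscles, and their part in these levels was not tested.

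Igfbp4 had 9.84, 9.89 and 10.71 in NP+tau muscles and 9.74, 9.42 and 10.78 in NP muscles, with replicate 3 the high sample of both groups. Its 6 probe sets differed by -0.38 to 0.17 and disagreed in sign. On 1421991_a_at the NP+tau muscles had 6.57, 6.21 and 6.32, below the NP muscles at 6.66, 6.59 and 6.90 (difference -0.35, unadjusted p = 0.070). Including this one, 3 member probe sets had all NP+tau muscles below all NP muscles (the others being of Ghr), where 7.77% of all probe sets did. Igfbp2 was near the limit of 4.49 for a dim probe set, with 4.61, 4.23 and 4.33 in NP+tau and 4.50, 4.52 and 4.39 in NP.

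Socs2, the feedback inhibitor whose loss makes mice overgrow, had 8.50, 8.74 and 8.51 in NP+tau muscles and 7.76, 8.55 and 8.33 in NP muscles by its brightest probe set. NP replicate 1 was the lowest muscle, and NP replicate 2 lay inside the NP+tau range. The difference was 0.37 (SE 0.224, 95% interval -0.16 to 0.90), or 0.14 without NP replicate 1, and the 4 Socs2 probe sets above the limit in both groups differed by 0.01 to 0.37. Probe set 1438470_at had 4.58, 4.71 and 4.62 in NP+tau and 4.14, 4.05 and 4.12 in NP. All its NP values lay under the limit of 4.49 for a dim probe set and all its NP+tau values just above, so that it had to differ once kept. No other member had all NP+tau muscles above all NP muscles, which held for 7.33% of all probe sets.

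Cish, the other inhibitor, had 10.04, 6.76 and 9.05 in NP+tau muscles and 8.08, 8.86 and 7.78 in NP muscles. NP+tau replicate 2 was the lowest muscle and the other NP+tau muscles the highest pair. The means were 8.62 ± 1.68 in NP+tau and 8.24 ± 0.56 in NP (SD, n = 3 each), a difference of 0.38 (SE 0.783) that became 1.31 without NP+tau replicate 2. That sample was lowest in 14 of the 25 member probe sets, among them all of Ghr and Igf1, and in 19.5% of all. Probe sets of 1 gene in 1 sample are not independent. NP+tau replicate 2 lay more than 1 below every other muscle in 3 member probe sets, 2 of Ghr and that of Cish, and in 0.424% of all.

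**Figure D3:**
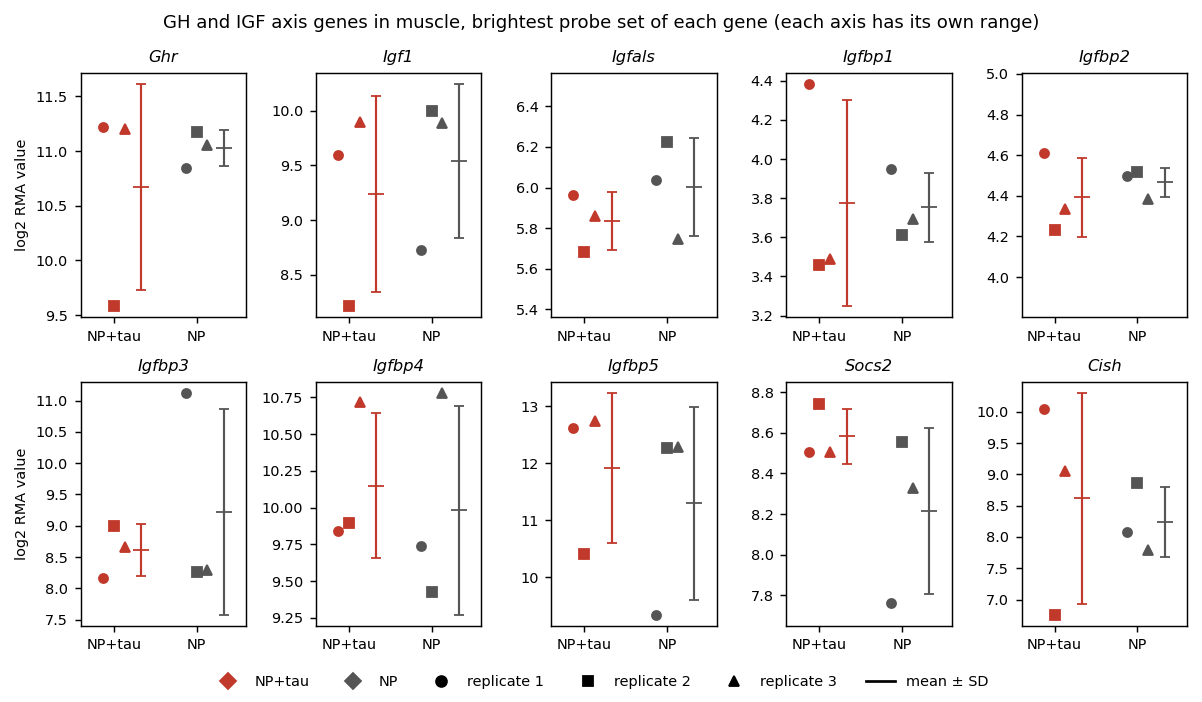
Log2 RMA value (y axis) of the 10 genes in quadriceps muscle, drawn as for liver, with NP+tau left of NP and the mean ± SD of 3 samples. NP+tau replicate 2 is low for Ghr (9.59) and Cish (6.76), and NP replicate 1 is high for Igfbp3 (11.12) and low for Igfbp5 (9.34).

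**Figure D4:**
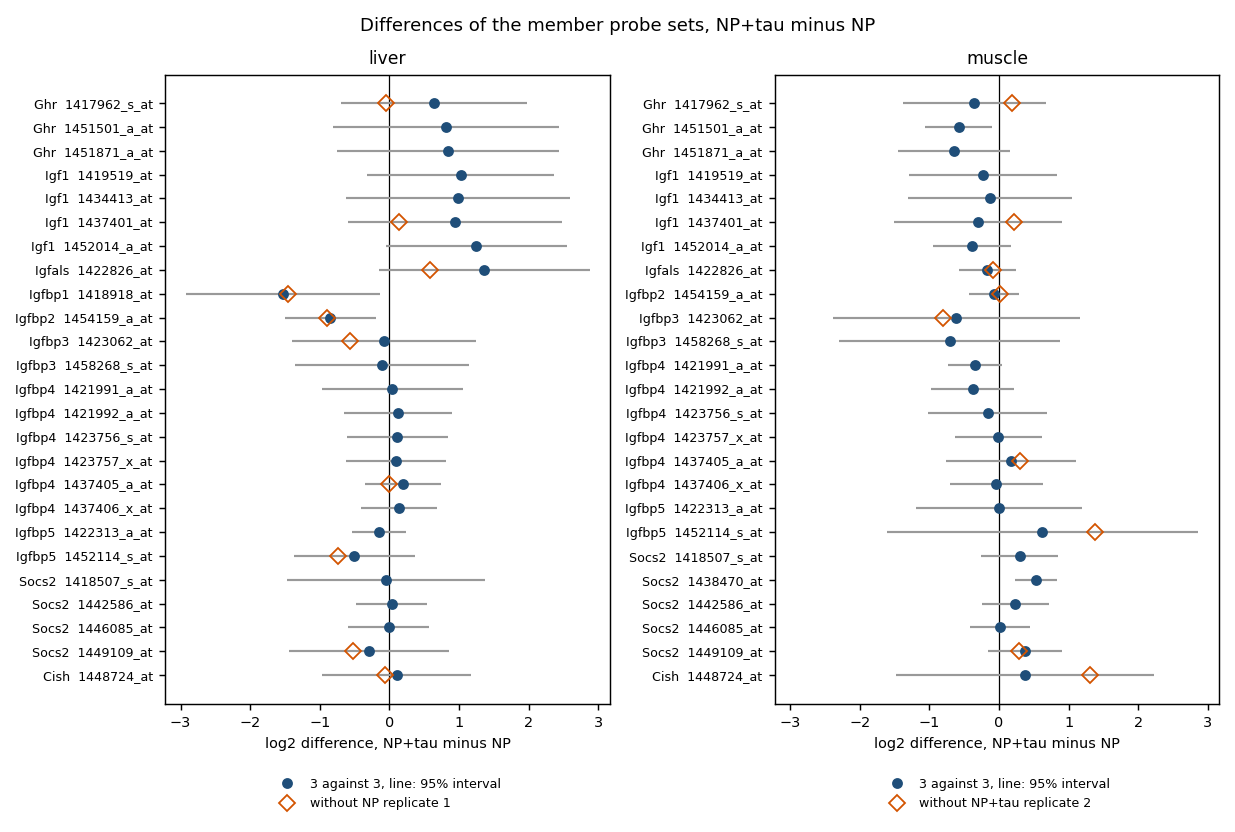
Log2 difference, NP+tau minus NP, of each member probe set with its 95% interval from limma, for liver on the left and muscle on the right. Open diamonds give the brightest probe set of a gene without liver NP replicate 1 (Igf1 at 0.14 and Igfals at 0.58) or without muscle NP+tau replicate 2 (Cish at 1.31), and Socs2 1438470_at in muscle was kept only through its NP+tau values.

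Each difference was also set against its counterpart in the other tissue, for the 24 member probe sets kept in both. None differed between liver and muscle after adjustment (0% of the 25622 probe sets did). At an unadjusted p under 0.05 there were 2 members of the 24, where 7.8% of all probe sets were past that limit, so that the members stood at about the share of all probe sets. One was Igf1 by probe set 1452014_a_at, whose liver difference exceeded its muscle difference by 1.64 (SE 0.64, unadjusted p = 0.026, adjusted p = 0.542), or by 1.07 with NP replicate 1 left out of both tissues. The other was Igfbp2, which lies near the limit of detection in muscle and could show little difference there, so that its contrast of -0.78 restates the liver value. With the replicate number taken as the animal, which the labels do not state, 3 member probe sets, all of Igf1, were past the unadjusted limit, where 11.7% of all were, with adjusted p = 0.424 for each.

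The rest of the axis comprised 12 other ligands, receptors, binding proteins and proteases, of which 11 were measured in each tissue. In muscle 3 of the 11 were lower in NP+tau at an unadjusted p under 0.05 and none was higher, against 288 lower and 586 higher of all 13829 genes, and the median difference was 0.05 (0.03 over all genes). Igf2, the fetal growth factor that falls after birth, had 11.79, 11.23 and 11.41 in NP+tau muscles and 12.97, 12.72 and 12.12 in NP muscles (difference -1.13, SE 0.258, NP+tau 2.18-fold lower). Pappa, the protease that frees IGF1 from Igfbp4, had 4.06, 4.66 and 4.55 in NP+tau muscles against 5.68, 5.20 and 5.77 in NP muscles. Its NP+tau values lay around the limit of 4.49, so the size of its difference is set by the floor of the array. Igfbp6, a binding protein that prefers IGF2, had 8.76, 8.50 and 8.28 in NP+tau muscles and 9.20, 8.87 and 9.17 in NP muscles (difference -0.57, SE 0.180). For these 3 genes, named for the smallest unadjusted p of their list, every NP+tau muscle lay below every NP muscle. That held for 7.77% of all probe sets, and the adjusted p was 0.707 (limma).

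In liver 1 of the 11 was lower at that limit and none was higher (118 higher and 616 lower of all 14276 genes), with 8 of the 11 below 0 and a median of -0.24 (-0.03 over all genes). The lower gene was Igf1r, the IGF1 receptor, which adult hepatocytes express little and other liver cells express more. It had 5.71, 5.96 and 6.05 in NP+tau livers and 7.12, 6.57 and 6.32 in NP livers, a difference of -0.77 (SE 0.246, unadjusted p = 0.017, adjusted p = 0.718). The NP livers were also those with the higher macrophage markers, whose part in the Igf1r level was not tested.

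Signal carriers of the GH receptor (17 of 20 genes measured in liver) had 12 genes below 0 and 5 above, with a median of -0.30, and at an unadjusted p under 0.05 there were 3 lower and 1 higher. Of all 14276 genes 7632 were below 0, with a median of -0.03, and 616 were lower and 118 higher at that limit. Without NP+tau replicate 1, the array that stood apart, 10 of the 17 signal carriers were below 0 and their median was -0.13. Stat3, which cytokines of inflammation activate as well, had 9.59, 9.35 and 9.62 in NP+tau livers and 10.46, 10.16 and 10.29 in NP livers (difference -0.78, SE 0.177, unadjusted p = 0.003). Socs3, an inhibitor induced by STAT3, had 6.41, 5.72 and 5.63 in NP+tau livers against 7.73, 6.597 and 6.70 in NP livers (difference -1.09, SE 0.364). Grb10, an adaptor that restrains insulin and IGF1 receptors, had 7.59, 8.73 and 8.95 in NP+tau livers and 9.84, 9.93 and 9.31 in NP livers (difference -1.27, SE 0.384). Onecut1, a liver factor that GH induces, went the other way, with 7.83, 6.53 and 6.47 in NP+tau livers and 5.58, 6.06 and 6.23 in NP livers (difference 0.99, SE 0.398). In muscle none of the 18 measured genes of this list was past that limit, and 9 lay on each side of 0. Genes of IGF1 receptor signalling (21 measured in each tissue) had 18 below 0 and none past the limit in liver. Their mean level was 7.08, 7.56 and 7.71 in NP+tau livers and 7.76, 7.68 and 7.70 in NP livers, with NP+tau replicate 1 the low array, and without it 13 were below 0 and their median difference was -0.05, against -0.30 with it. In muscle 2 of these 21 genes were higher at the limit, where 586 of all 13829 genes were. They were the adaptor Grb2, by 0.59 (SE 0.181), and the exchange factor Sos1, by 0.69 (SE 0.240).

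**Figure D5:**
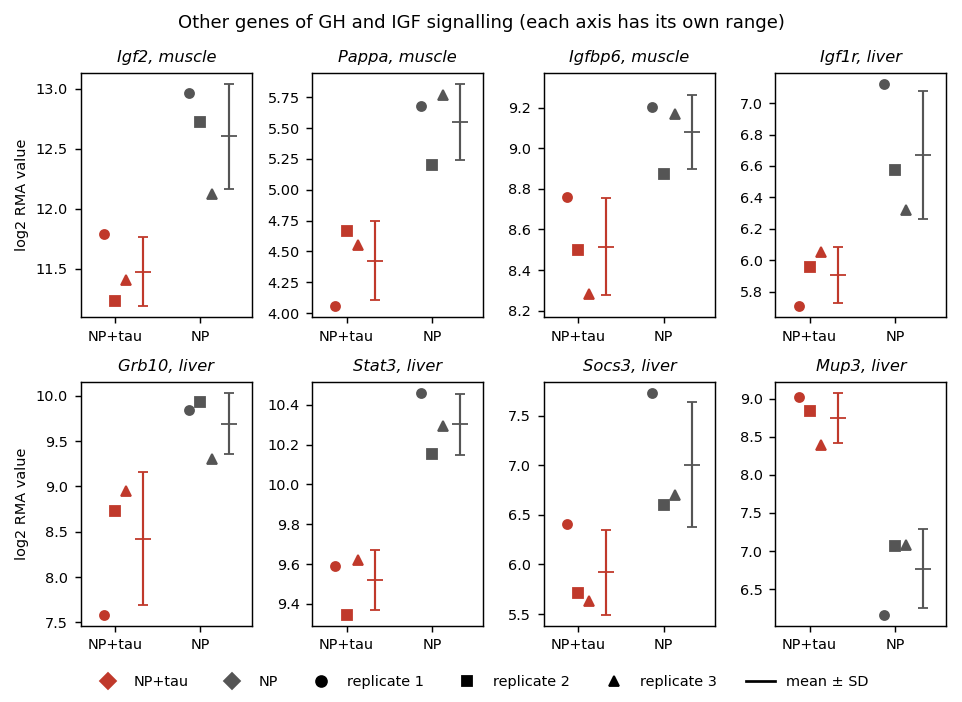
Log2 RMA value (y axis) of other genes of the axis and its signalling named in the text, each panel giving the gene and the tissue, with NP+tau left of NP and the mean ± SD of 3 samples. Igf2, Pappa and Igfbp6 in muscle have all NP+tau samples below all NP samples, as do 7.77% of all muscle probe sets.

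Liver genes that depend on the pattern of GH release gave a further view. Of 9 measured genes known to be higher in male liver, 7 were above 0 (median 0.47) and 2 were higher at an unadjusted p under 0.05. Over all 14276 genes 6644 were above 0 and 118 were higher at that limit. Without NP replicate 1, 8 of the 9 were above 0 (median 0.31). Without NP+tau replicate 1, 7 of the 9 were above 0 (median 0.77). Mup3, a major urinary protein, had 9.02, 8.84 and 8.39 in NP+tau livers and 6.17, 7.07 and 7.08 in NP livers, a difference of 1.98 (SE 0.308, adjusted p = 0.718). Nudt7, a peroxisomal hydrolase, had 11.96, 11.50 and 11.53 in NP+tau livers against 8.94, 10.44 and 10.45 in NP livers. NP+tau replicate 1, the NP+tau liver with the high Xist level, was also the array that stood apart. Diet and the Xist level cannot be fully told apart in these livers, and the part of sex in the levels of Mup3 and Nudt7 was not tested. Of 11 measured genes known to be higher in female liver, 8 were above 0 (median 0.56) and none was past that limit. Without NP replicate 1, 5 of the 11 were above 0 and their median was -0.04. Cyp17a1, a steroid hydroxylase, had 10.75, 10.13 and 10.57 in NP+tau livers and 7.73, 10.08 and 9.55 in NP livers, where NP replicate 1 was again far below the rest. In muscle 4 of the male-biased and 7 of the female-biased genes were measured, with 1 higher and 1 lower among the male-biased genes and 1 lower among the female-biased genes. Of all 13829 genes in muscle 586 were higher and 288 lower at that limit.

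Genes of the fed and fasted state, to which Igfbp1 also responds, form a list of 14 measured in liver that mixes genes raised by fasting with genes raised by feeding. One was higher and 1 lower at an unadjusted p under 0.05, against 118 higher and 616 lower of all 14276 genes. Ppargc1a, a coactivator of the fasting response, had 6.08, 5.38 and 7.16 in NP+tau livers and 7.85, 7.99 and 7.24 in NP livers (difference -1.49, SE 0.454, unadjusted p = 0.014), and like Igfbp1 it was close to the NP level in NP+tau replicate 3. Other genes raised by fasting had overlapping groups and differences below 0 that did not pass the limit, such as Pck1 (-1.07), Pdk4 (-1.14), Fgf21 (-1.14), Trib3 (-0.84) and G6pc (-0.46), whereas Angptl4 was higher in NP+tau by 0.72 (SE 0.290) and Cpt1a differed by 0.02. Of the genes raised by feeding, Fasn, the fatty acid synthase, had 11.69, 11.85 and 11.45 in NP+tau livers and 9.65, 11.35 and 11.02 in NP livers. Thrsp, a lipogenic gene, had 13.20, 12.34 and 13.22 in NP+tau livers and 4.58, 11.73 and 12.26 in NP livers. In both of these genes all NP+tau livers lay above all NP livers, as in 5.73% of all probe sets. NP replicate 1 was the lowest liver in both, as in 19.0% of all probe sets. Srebf1 differed by -0.04 and Pnpla3 by 0.15. Pck1, Pdk4, Fgf21, G6pc, Cpt1a, Thrsp, Srebf1 and Pnpla3 were named after their values were seen. In muscle none of the 13 measured genes of this list was past the limit. Food intake before the tissues were taken is not given in the sources used here.

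Other cell markers complete the picture of the samples. In liver, 6 of 10 fibroblast and stellate cell markers and 1 of 10 endothelial markers (Vwf, -1.61) were lower at an unadjusted p under 0.05, as were 1 of 9 hepatocyte markers (Fgb, -0.47) and 1 of 6 myoblast markers. Of all 14276 genes in liver 616 were lower at that limit. Muscle fibre markers in liver had mean levels of 5.17, 4.54 and 4.54 in NP+tau and 4.42, 4.45 and 4.41 in NP, and none of them was past that limit. In muscle, hepatocyte markers had mean levels of 4.69 to 4.99 in NP+tau and 4.82 to 5.29 in NP, and none of the markers of hepatocytes, muscle fibres, macrophages or neutrophils was past the limit. Neutrophil markers varied between muscles of both groups, with 6.97, 6.74 and 7.92 in NP+tau and 7.50, 5.53 and 9.41 in NP. Of all 13829 genes in muscle 586 were higher and 288 lower at an unadjusted p under 0.05. The endothelial genes Cdh5 and Tie1 were higher in NP+tau muscle by 0.73 each, 2 of 9 fibroblast markers were lower (Pdgfra, -0.69, and Dcn, -0.42), and of 9 myoblast markers Myog, a factor of muscle differentiation that acts together with IGF signals, had 8.10, 7.84 and 7.58 in NP+tau against 6.20, 6.39 and 6.35 in NP (difference 1.53, SE 0.172, adjusted p = 0.458). Of the other myoblast markers 3 were above 0 and 5 below, with Chrna1, a subunit of the fetal and adult muscle acetylcholine receptor, lower by 0.76 at an unadjusted p of 0.038 with overlapping groups. Their part in the levels of the axis genes was not tested.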

How the data were processed

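RNA from 6 livers and 6 quadriceps muscles was measured on Affymetrix mouse arrays, 1 array per sample. As deposited, each value is a log2 RMA level, which the authors computed with justRMA (quantile normalisation of the arrays of 1 tissue at a time), so levels were not compared between tissues. Arrays have no read depth, and 3 samples a group limit the precision. The members and gene lists were chosen with earlier results of these data known.

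Control probe sets (64) were removed. Dim probe sets were dropped per tissue: those whose maximum over the 6 arrays was under the 35th percentile of such maxima (4.60 in liver, 4.49 in muscle), leaving 29274 in each. Symbols came from the platform annotation: 34958 probe sets had 1 symbol, 932 had several and 9211 had none. Of 180 list genes 163 matched. Of the 27 member probe sets 25 were kept in each tissue. The brightest probe set stood for a gene unless another is named, and all member probe sets were examined. Of each list, up to 4 genes with the smallest unadjusted p and up to 2 in the opposite direction could be named.

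NP+tau was compared with NP by lmFit and eBayes of limma 3.58.1 (R 4.3.3) within a tissue, two-sided, with Benjamini-Hochberg adjustment over every probe set that remained, called at 0.05. Whether liver and muscle differences differed was tested by an interaction term on the 12 arrays of 6 animals, without the animal in the fit, since the labels do not tie arrays to animals. Unadjusted p-values are limma's. Exact permutation tests were two-sided. Tested on simulated data with 29274 probe sets, the liver comparison called 2% of probe sets changed by 1 on the log2 scale and 62% of those changed by 2, and the muscle comparison called 29% and 74%. The study's absent calls and its own tests were not used here. Alternatives covered the filter, variance model, array weights, centring, replicate block, Xist as a covariate and leaving samples out. Figures were drawn with matplotlib 3.10.9.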

Additional observations from a re-analysis of the deposited data

How the results depend on the processing

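No member probe set was called in either tissue under any alternative except Xist as a covariate in liver, with 2 called, Igfbp1 at -3.11 (adjusted p = 0.00818) and Igfbp2 at -1.37 (adjusted p = 0.024). That setting called 9449 liver probe sets, against 0 without it, and in it the comparison rests on NP+tau replicate 1, the NP+tau liver with the high Xist level. Over all probe sets, array weights called 8 in liver, and leaving out NP replicate 1 and NP+tau replicate 1 together called 9. Leaving out 1 sample called 0 to 9 in liver (9 without NP+tau replicate 1, 1 without NP replicate 3) and 0 to 8 in muscle (8 without NP+tau replicate 1). The difference between tissues stayed at 0 calls, with the animal as a replicate block too. Of 284 alternative values of single members, 251 kept direction and side of the threshold, 31 turned direction, and 7 of 19 results never turned, among them Igf1, Igfals, Igfbp1, Igfbp2 and Igfbp5 in liver. When 1 sample was left out, liver differences ran from -0.044 to 1.00 for Ghr, -0.57 to 0.48 for Igfbp3, -0.0071 to 0.35 for Igfbp4, -0.55 to 0.22 for Socs2 and -0.40 to 0.49 for Cish, and muscle differences from -0.63 to 0.19 for Ghr, -0.70 to 0.21 for Igf1, -0.18 to 0.0064 for Igfbp2, -1.10 to 0.33 for Igfbp3, -0.12 to 0.57 for Igfbp4, -0.36 to 1.38 for Igfbp5 and -0.34 to 1.31 for Cish. Other turns in liver were Cish at -0.46 with array weights, Igfbp3 at 0.033 with centred arrays, Igfbp3 at 0.18, Igfbp4 at -0.043 and Socs2 at 0.12 with Xist, and Ghr at -0.19 and Cish at -0.56 without both replicates 1. In muscle they were Ghr at 0.14, Igf1 at 0.0085, Igfbp2 at 0.14 and Igfbp4 at -0.14 with Xist, Igfbp4 at -0.13 by the mean of its probe sets, and, without NP+tau replicate 2 and NP replicate 1 (chosen after seeing the data), Ghr at 0.10, Igfbp2 at 0.021 and Igfbp3 at 0.14. The cause of these turns was not tested. The gene lists without single livers were also added after seeing the data. Deviations of same-numbered NP+tau and NP samples from their group means had r between -0.27 and 0.33 over the pairs of both tissues. With 3 samples a group these values cannot show whether the numbers pair the diets. The replicate block gave 0 calls in both tissues.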
